A study of Mus musculus with 26 samples.

Results

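TG6 is a TCR transgenic mouse line whose MHC class I-restricted receptor has low self-reactivity, and its thymocytes are followed here from early to late positive selection. The comparison rests on 5 of the 26 samples of an RNA-seq series, chosen by their labels. Of these, 3 are CXCR4+CCR7- CD4+CD8+ double-positive (DP) thymocytes, called early here, and 2 are CXCR4-CCR7+ DP thymocytes, called late. The other samples are mature CD8 single-positive (CD8SP) cells of TG6 and the same 3 stages of F5 and OT-1, lines of intermediate and high self-reactivity with 3 samples in every group.

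The TG6 mice carried the TG6 transgenes on an H2 b/d background from a cross of C57/BL6 with B6.C-H2d/bByJ. They are not labelled as lacking Rag1 or Rag2, so receptors other than the transgenic pair could be assembled. The F5 mice were transgenic and Rag1KO, and the OT-1 mice transgenic and Rag2KO. RNA was taken from sorted thymocytes, and by the study's methods the mice were aged 3 to 10 weeks. The libraries labelled Rag1KO still held Rag1 at 14080 ± 2868 (SD, n = 3) in F5 early cells and those labelled Rag2KO held Rag2 at 216 ± 64.4 (SD, n = 3) in OT-1 early cells, and whether these reads lie outside the deleted parts is not known here. The Rag genotype and the MHC haplotype cannot be told apart from the transgenic receptor wherever TG6 is set beside F5 or OT-1.

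DP thymocytes arise from dividing precursors, rearrange their TCRα genes with the Rag recombinase and stay in the cortex, where CXCR4 helps to hold them. A weak signal from the new receptor, on binding self-peptide on MHC, starts positive selection. Recombination then ends, CCR7 replaces CXCR4, and the cell moves to the medulla and becomes CD4 or CD8 single-positive. Cells with an MHC class I-restricted receptor become CD8SP cells, a choice marked by Runx3, with IL-7 and interferon signals acting late in the process.

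The values are the authors' normalized counts per gene symbol, which sum to between 16134786 and 16845862 in the 5 libraries. Of 46517 symbols, 18280 were listed at 0 in all 26 libraries and 16372 reached 10 in 2 or more libraries and were tested. Libraries correlated across these genes at 0.969 to 0.976 within the early group, at 0.976 between the 2 late libraries and at 0.916 to 0.927 between the stages. By the design, thymocytes of 3 mice of each line, the biological replicates, were sorted into the 3 stages, with 2 replicates for TG6 late. The labels do not tie a replicate number to a mouse, and the main fit treats the stages as unpaired. All 13 DP thymocyte marker genes were above 10 in every early library and 11 of 13 in both late libraries, the others being Rag2 and Ptcra. Fold changes are late minus early on the log2(value + 1) scale, where low values give folds that are too small. In bulk RNA, fewer cells of a type and less RNA per cell cannot be told apart.

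Between early and late positive selection 4158 genes changed, 25.4% of those tested, with 1984 higher at late (12.1%) and 2174 lower (13.3%). These shares are the background for every count of list members below. The median fold change over all tested genes was 0. Of the called genes, 992 rose and 1289 fell by at least 1 on the log2 scale. The early and late libraries did not overlap for 9068 genes (55.4%), and a lack of overlap alone says little with 3 libraries against 2. An exact permutation test of 3 against 2 libraries cannot go below a p of 0.1, and calls come from the limma fit over all 26 libraries, which shares 1 estimate of the spread among the groups. The count fell to 2755 without late replicate 1 and to 2631 without late replicate 2, where 1 late library was left and assumed to vary like the other groups.

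The genes with the largest fold changes in each direction are given first. Cd7, a membrane protein of T and NK cells (chr11:121036747-121039418 in GRCm38), had 5.46, 3.64 and 3.56 in the early libraries and 543 and 476 in the late libraries (log2 fold change 6.63 ± 0.35 (SE), adjusted p = 1.6e-11). Il7r, the receptor chain for the survival cytokine IL-7 (chr15:9505788-9530176), had 11.9, 9.94 and 12.6 in the early libraries and 757 and 690.1 in the late libraries (log2 fold change 5.87 ± 0.49 (SE), adjusted p = 1.2e-08). Both were low in all 3 early libraries and far higher in both late ones, and a lack of overlap was required of the genes named for their size of change.

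Adam19, a membrane metalloprotease, rose from 34.9, 21.4 and 11.7 to 1596 and 1226 (log2 fold change 6.01 ± 0.60 (SE), adjusted p = 1.5e-07). Adgrg5, an adhesion G protein-coupled receptor, was at 26.6, 21.3 and 4.46 in the early libraries and 902 and 1006 in the late libraries (log2 fold change 5.99, adjusted p = 2.9e-08). Gpr18, a G protein-coupled receptor of lymphocytes, was at 15.8, 13.9 and 6.77 in the early libraries and 742 and 757 in the late libraries (log2 fold change 5.91, adjusted p = 3.7e-10). In each of these genes both late libraries stood far above the highest early one.

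Nkg7, a protein of cytotoxic granules, was at 15.8, 8.95 and 4.84 in the early libraries and 628 and 517 in the late libraries (log2 fold change 5.85, adjusted p = 8.8e-10). Lfng, a glycosyltransferase that modifies Notch receptors, was at 6.6, 11.6 and 6.49 in the early libraries and 537 and 470.0 in the late libraries (log2 fold change 5.81, adjusted p = 2.6e-10). Ctss, the lysosomal protease cathepsin S, was at 10.9, 2.98 and 11.6 in the early libraries and 421 and 520.0 in the late libraries (log2 fold change 5.80, adjusted p = 1.5e-09). Crtam, an adhesion molecule of activated T cells, was listed at 0, 1.38 and 0 in the early libraries and reached 132 and 76.1 in the late ones, so its fold change depends on the pseudocount. Gprin3 (5.67) and Rgs11, a regulator of G protein signalling (5.65), complete the 12 genes with the largest rise, together with the sorting marker Ccr7.

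Rag1, the catalytic subunit of the V(D)J recombinase (chr2:101638282-101649501), had 51114, 58364 and 54448 in the early libraries and 249 and 124 in the late libraries (log2 fold change −8.27 ± 0.98 (SE), adjusted p = 1.5e-06). Its partner Rag2 (chr2:101624718-101632529) had 2322, 2529 and 2074 in the early libraries and 14 and 5.95 in the late libraries (log2 fold change −7.82 ± 1.12 (SE), adjusted p = 1.5e-05). In both genes the highest late library lay far below the lowest early one. The mature CD8SP libraries held 696, 619.9 and 5265 for Rag1, of which replicate 3 was the highest.

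Cenpf, a kinetochore protein, fell from 3551, 3411 and 3223 to 17.1 and 9.74 (log2 fold change −7.93 ± 1.15 (SE), adjusted p = 1.7e-05). Aurkb, the kinase of the chromosomal passenger complex, fell from 1218, 1090.2 and 1023 to 4.85 and 5.97 (log2 fold change −7.44, adjusted p = 7.8e-07). A further 5 of the 12 genes with the largest fall serve mitosis or DNA maintenance in dividing cells. They are the kinase Pbk (−7.77), the helicase Pif1 (−7.29), Depdc1a (−6.94), the chromokinesin Kif4 (−6.85) and the spindle protein Nusap1 (−6.75). The other genes are the sulfatase Arsi (−7.54), Nwd1 (−6.86) and the serine protease Prss57, which had 92.8, 115 and 162 in the early libraries and was listed at 0 in both late ones.

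**Figure D1:**
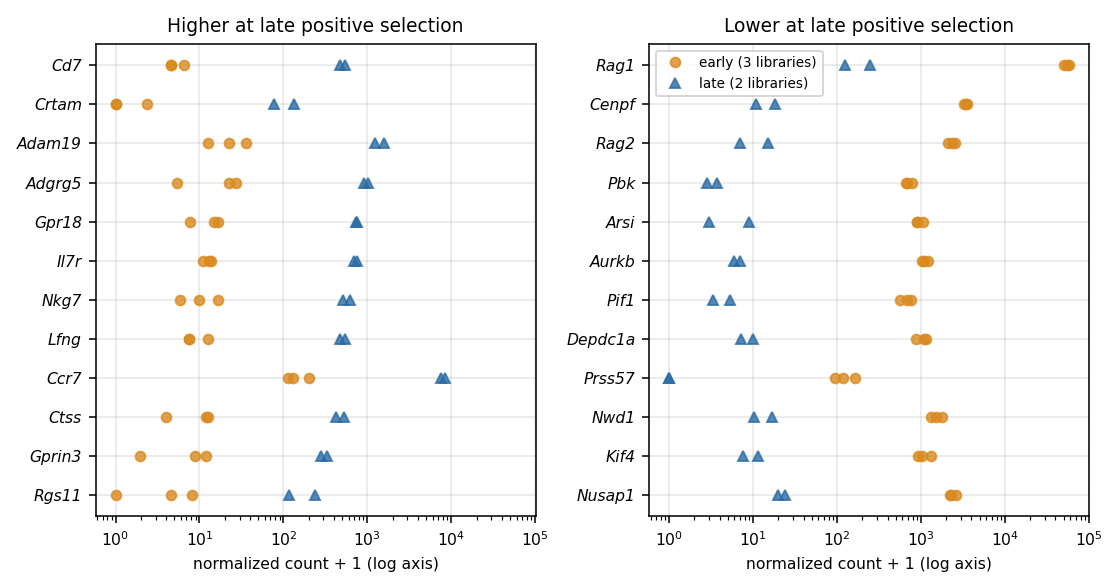
Normalized count plus 1 on a log axis for the 12 genes with the largest rise (left) and the largest fall (right) in TG6, with 1 point per library, orange circles for the 3 early and blue triangles for the 2 late libraries. Genes were chosen so that early and late points do not overlap, and Rag1 has 51114 or more in the early and 249 or less in the late libraries.

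The 2 genes whose proteins separate the stages in the sort, Ccr7 and Cxcr4, moved with it, which is a check of the labels and not a result. Ccr7 had 129.7, 112 and 199 in the early libraries and 7585 and 8519 in the late libraries, and Cxcr4 had 5358, 5527 and 4598 in the early libraries and 1133 and 1024 in the late libraries (adjusted p = 5e-10 and adjusted p = 0.0011). CD4 and CD8 were gated alike at both stages, so their genes do not check the stage labels. Cd4 fell from 21209, 22398 and 22731 to 4084 and 4089 (log2 fold change −2.44 ± 0.55 (SE), adjusted p = 0.0021), and Cd8a from 36458, 36421 and 41213 to 27012 and 24097 (log2 fold change −0.57, adjusted p = 0.0028). Cd8b1 fell by 0.54. Both CD8 genes lost their calls without late replicate 2 (adjusted p = 0.06 for Cd8a and adjusted p = 0.17 for Cd8b1).

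The genes of recombination and of the DP stage before selection were described through a list of 16 genes, part of which the study used to mark preselection cells. Of the 16, 14 fell and none rose, and the median fold change was −2.23. Beside Rag1 and Rag2, Ptcra, the pre-TCR α chain, fell from 334, 483 and 452 to 13.7 and 7.86 (log2 fold change −5.20 ± 0.67 (SE), adjusted p = 4.4e-06). Arpp21 fell by 4.08, and Dntt, the polymerase that adds nucleotides at receptor joints, fell by 2.99. The smallest fall belonged to Themis, a TCR signalling adaptor needed for positive selection, with 14160.4, 14218 and 15334 in the early libraries and 10805 and 9961 in the late libraries (log2 fold change −0.49, adjusted p = 0.00031). Slc6a19 and Tdrd5 were not called (0.56 and 0.10), and their early and late libraries overlapped.

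Division genes fell almost without exception. Of 30 mitosis genes 29 fell and none rose, with a median fold change of −5.41. Mki67, the proliferation marker Ki-67, had 17443, 16189 and 16909 in the early libraries and 195 and 196 in the late libraries (log2 fold change −6.42 ± 0.86 (SE), adjusted p = 6.3e-06). Top2a, topoisomerase IIα, had 13855, 12652 and 14116 in the early libraries and 264 and 213 in the late libraries (log2 fold change −5.83 ± 0.76 (SE), adjusted p = 4.4e-06). The late libraries of either gene lay far below all early ones. In mature CD8SP libraries Mki67 stood at 6219.6, 7129 and 23175, above both late libraries. Kif23 was the exception, with 1501, 1491 and 1463 in the early libraries and 1567 and 1689 in the late libraries (log2 fold change 0.13, adjusted p = 0.7).

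Among 30 DNA replication genes 28 fell and none rose, with a median of −1.78. Rrm2, the ribonucleotide reductase subunit limited to S phase, fell from 3478, 3353 and 3969 to 74.5 and 55.7 (log2 fold change −5.78 ± 0.80 (SE), adjusted p = 9.6e-06). Tyms, thymidylate synthase, fell by 4.35, the replication factor Mcm10 fell by 4.12, and Cdc45, part of the replicative helicase, fell by 4.09. Ung (log2 fold change −0.23, adjusted p = 0.63) and Chaf1b (log2 fold change −0.34, adjusted p = 0.33) were not called. The strip plot of list members shows the medians of the division lists and of the recombination list to the left of 0.

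The promoters of the division genes are shown because most of the list moved together. Windows from 250 bases before to 50 after the first listed start of each symbol were taken from RefSeq (GRCm38.p6), which matched 24 of the 30 mitosis genes. Short motifs known from promoters of genes expressed in G2 and M phase were searched on both strands, TTTGAA (the core of the CHR element) and CCAAT, and a match of one may share bases with a match of the other. TTTGAA was in 17 of the 24 windows (70.8%) against 18.1% of all 27025 windows, and CCAAT in 21 of 24 (87.5%) against 37.9%. Kif23, the mitosis gene that did not fall, holds both. Of the DNA replication windows 16% held TTTGAA and 68% CCAAT, and CCAAT was also in 61.5% of the windows of the MHC class I list, most of which rose. The windows of Cdk1, the kinase that drives mitosis, and Ccnb2, its partner cyclin B2, hold both, and capitals mark every match in either orientation. Cdk1 lies on the minus strand at chr10:69352863-69353162 and Ccnb2 on the minus strand at chr9:70421505-70421804, both printed in the direction of transcription.
Cdk1: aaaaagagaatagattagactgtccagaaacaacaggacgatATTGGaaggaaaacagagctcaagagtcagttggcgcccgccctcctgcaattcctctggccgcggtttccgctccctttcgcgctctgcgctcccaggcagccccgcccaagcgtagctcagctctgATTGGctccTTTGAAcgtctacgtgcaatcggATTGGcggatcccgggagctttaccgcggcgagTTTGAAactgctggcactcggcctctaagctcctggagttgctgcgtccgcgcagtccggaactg
Ccnb2: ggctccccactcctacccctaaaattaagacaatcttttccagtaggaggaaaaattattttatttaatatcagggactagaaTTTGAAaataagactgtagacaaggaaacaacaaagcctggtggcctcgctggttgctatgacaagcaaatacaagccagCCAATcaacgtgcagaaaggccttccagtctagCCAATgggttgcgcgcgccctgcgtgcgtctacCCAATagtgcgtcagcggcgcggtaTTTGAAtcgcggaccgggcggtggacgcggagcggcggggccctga
The Cdk1 window holds 2 matches of TTTGAA and 3 of CCAAT, and the Ccnb2 window the same numbers. Cdk1 had 1029, 1083 and 1199.5 in the early libraries and 29.7 and 13 in the late libraries (log2 fold change −5.73, adjusted p = 3.6e-05), and Ccnb2 had 1743, 1571 and 1832 in the early libraries and 35.2 and 26.5 in the late libraries (log2 fold change −5.76, adjusted p = 1.8e-05). A match describes these letters only and is not a measured site.

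Interferon-stimulated genes, the transcripts that type I or type III interferon induces, rose as a group. Of 32 such genes 29 rose, none fell, and the median fold change was 2.17. Ifit1, which binds viral RNA, had 36.6, 41.7 and 29 in the early libraries and 877 and 1024 in the late libraries (log2 fold change 4.70 ± 0.38 (SE), adjusted p = 7.8e-09). Oas2, an oligoadenylate synthetase, had 27.7, 12.6 and 9.49 in the early libraries and 602 and 744 in the late libraries (log2 fold change 5.39 ± 0.51 (SE), adjusted p = 7.6e-08). Isg15, a ubiquitin-like modifier, had 77.2, 112 and 113 in the early libraries and 562 and 730.4 in the late libraries (log2 fold change 2.68 ± 0.33 (SE), adjusted p = 2.7e-06). Both late libraries exceeded every early library in these genes.

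A factor of the pathway was among them. Irf7, the master regulator of type I interferon genes, rose from 267, 318 and 248 to 1405 and 1740.3 (log2 fold change 2.50, adjusted p = 3.2e-08). Stat2 (log2 fold change 0.23, adjusted p = 0.33), Ifit2 (log2 fold change −0.32, adjusted p = 0.15) and Igtp (log2 fold change 0.41, adjusted p = 0.2) were the 3 members not called.

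The interferon response element, written here as GAAANNGAAA, was in 16 of the 25 interferon-stimulated genes with a RefSeq window (64%), against 3.49% of all windows. Overlapping matches were counted and both strands searched. The windows of Ifit1 (plus strand, chr19:34640639-34640938) and Isg15 (minus strand, chr4:156200769-156201068) are shown with the matches in capitals.
Ifit1: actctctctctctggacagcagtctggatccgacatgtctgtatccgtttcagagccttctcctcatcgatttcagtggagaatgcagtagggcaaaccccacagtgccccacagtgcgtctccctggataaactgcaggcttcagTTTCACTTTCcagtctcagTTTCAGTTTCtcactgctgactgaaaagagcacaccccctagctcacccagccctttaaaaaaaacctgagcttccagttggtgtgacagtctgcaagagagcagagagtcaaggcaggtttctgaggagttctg
Isg15: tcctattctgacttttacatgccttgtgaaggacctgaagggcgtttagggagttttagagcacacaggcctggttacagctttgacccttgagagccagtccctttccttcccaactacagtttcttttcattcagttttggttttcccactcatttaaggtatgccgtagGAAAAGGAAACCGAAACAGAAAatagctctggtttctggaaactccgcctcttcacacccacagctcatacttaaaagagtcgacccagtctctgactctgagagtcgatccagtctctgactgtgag
The Ifit1 window holds 2 separate matches on the opposite strand, and the Isg15 window 3 overlapping ones. These motifs were chosen with the fold changes known.

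Genes for MHC class I and its peptide loading rose too, 14 of 16 with none lower and a median of 0.93. Nlrc5, the transactivator of class I genes (chr8:94434356-94527272), had 264, 201 and 188 in the early libraries and 6211 and 7956 in the late libraries (log2 fold change 5.02 ± 0.23 (SE), adjusted p = 1.6e-12). The heavy chain H2-K1 had 1153, 1138 and 1117 in the early libraries and 6826 and 9176 in the late libraries (log2 fold change 2.80 ± 0.18 (SE), adjusted p = 2.9e-10), and H2-D1 2767, 2873 and 2676 in the early libraries and 12913 and 14973 in the late libraries (log2 fold change 2.33, adjusted p = 2.4e-09). The light chain B2m had 3682, 3746 and 2077 in the early libraries and 14058 and 15809 in the late libraries (log2 fold change 2.28, adjusted p = 1.4e-06). Tap1, of the peptide transporter, rose by 1.13, whereas the immunoproteasome subunit Psmb8 (log2 fold change −0.09, adjusted p = 0.68) and the chaperone Tapbpl (log2 fold change −0.04, adjusted p = 0.88) were not called. Without late replicate 2 the count was 9 of 16. TG6 mice carry H2 b/d, and reads of the class I heavy chain genes could be shared between near-identical copies or reflect alleles absent from the reference genome, so levels of H2-K1 and H2-D1 are less certain.

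Markers of dendritic cells, which the thymus also holds, moved in the same direction. Of 13 such markers 12 were tested and 6 rose, and their summed level was 427 to 460.3 in the early and 1285 and 1920 in the late libraries. Bst2, an interferon-stimulated gene itself, made up 533 and 634 of the late sums, and Cd74, the class II invariant chain, 349.5 and 607. The class II chains H2-Aa (6.24, 22.1 and 20.2 in the early libraries and 84.3 and 159 in the late libraries) and H2-Eb1 (20.8, 8.95 and 5.81 in the early libraries and 76.3 and 125 in the late libraries) rose, as did the cytokine receptor Flt3 (14.6, 18.7 and 5.76 in the early libraries and 30.4 and 37.7 in the late libraries) and the chemokine Ccl22 (0, 0.71 and 0 in the early libraries and 51.5 and 61.5 in the late libraries). The 6 markers not called were H2-Ab1, at 107 to 115 in the early and 119.6 and 239.7 in the late libraries, Xcr1, at 11.6 to 26.8 and at 26.4 and 24.6, and Itgax, Clec9a, Siglech and Zbtb46, each at 15.7 or less in all 5 libraries. Batf3, which was not tested, was at 0 in both late libraries. The 6 calls became 4 without late replicate 1 and 2 without late replicate 2, where H2-Aa (adjusted p = 0.23), H2-Eb1 (adjusted p = 0.13), Flt3 (adjusted p = 0.18) and Cd74 (adjusted p = 0.12) lost theirs. The part of these cells in the rise of the interferon genes was not tested. Of the markers of other cells, 2 of 8 for B cells and 1 of 10 for macrophages and neutrophils fell, 1 of 7 for thymic epithelium, 1 of 6 for erythroid cells and 1 of 7 for NK, innate-like and γδ T cells rose, and none of 5 for stroma and endothelium was called, beside 12.1% of all genes that rose and 13.3% that fell.

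**Figure D2:**
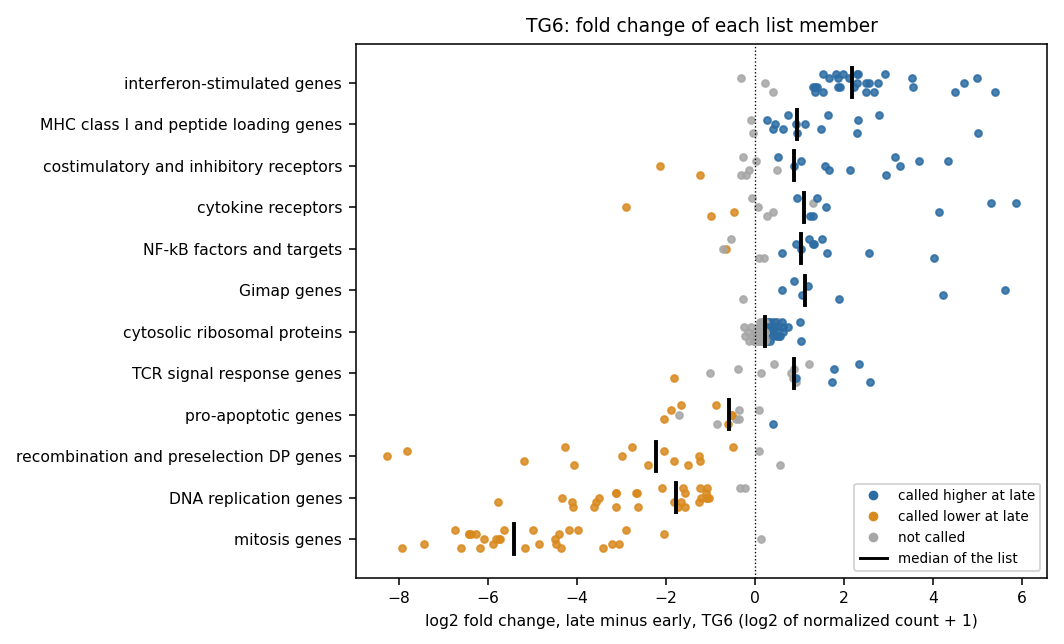
Log2 fold change from early to late in TG6 for each member of the gene lists, with 1 point per gene coloured by its call and a black bar at the median of the list. Mitosis genes have a median of −5.41 and interferon-stimulated genes of 2.17.

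Cytokine receptor genes moved in both directions. Of 16, 8 rose and 3 fell, with a median of 1.10. Il2rb, the β chain shared by the IL-2 and IL-15 receptors, had 27.5, 24.6 and 37.7 in the early libraries and 1149.8 and 1248 in the late libraries (log2 fold change 5.30 ± 0.34 (SE), adjusted p = 2.7e-10). Il6ra had 37.1, 30.1 and 11.8 in the early libraries and 476 and 393 in the late libraries (log2 fold change 4.13, adjusted p = 1.9e-09), and the common γ chain Il2rg, already expressed at the early stage, had 5535, 5847 and 5414 in the early libraries and 10469 and 11042 in the late libraries (log2 fold change 0.94, adjusted p = 5e-07). Ifngr1, the interferon γ receptor, fell from 10579, 9657 and 12782 to 1581 and 1363 (log2 fold change −2.90, adjusted p = 1.9e-06). The 3 members called lower became 1 without late replicate 2.

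In the signalling genes below these receptors, 6 of 19 rose and 4 fell. Jak3, the kinase bound to the γ chain, rose from 584, 630.1 and 635 to 2188 and 2456 (log2 fold change 1.91, adjusted p = 5e-09). The feedback inhibitors split, with Socs3 at 266, 314 and 309.5 in the early libraries and 803 and 877 in the late libraries (log2 fold change 1.50, adjusted p = 0.00055) and Socs1 at 2214, 2439 and 3093 in the early libraries and 814 and 978 in the late libraries (log2 fold change −1.52, adjusted p = 0.0012).

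The anti-apoptotic genes Bcl2 and Bcl2l1 moved in opposite directions. Bcl2, the anti-apoptotic protein of mature T cells, rose from 724, 651 and 500.0 to 3090.1 and 2872 (log2 fold change 2.27 ± 0.20 (SE), adjusted p = 2e-08), and Bcl2l1, which encodes Bcl-xL of DP cells, fell from 4012, 3663 and 4041 to 1054 and 865 (log2 fold change −2.03 ± 0.22 (SE), adjusted p = 4.3e-07). Mcl1 was not called (log2 fold change 0.04, adjusted p = 0.9). Of 10 anti-apoptotic genes tested, 2 rose and 1 fell, near the 12.1% and 13.3% of all genes, the other riser being Bcl2a1b, at 0, 7.95 and 0 in the early libraries and 10.8 and 23.6 in the late libraries, whose call was lost without late replicate 2 (adjusted p = 0.078).

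Of 14 pro-apoptotic genes 7 fell and 1 rose, with a median of −0.58. Bid fell by 2.05 (adjusted p = 3.9e-06). The number that fell was 4 without late replicate 1 and 3 without late replicate 2. Bcl2l11, which encodes Bim, the mediator of negative selection, was at 2362, 2128 and 2668 in the early libraries and 1316 and 1327 in the late libraries and not called (adjusted p = 0.13), but limma called it lower with the replicate number as a block (adjusted p = 0.00029), and also with only the groups compared, only the 8 TG6 libraries or library weights.

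All but 1 of the 8 Gimap genes, GTPases of lymphocyte survival that lie in 1 cluster on chromosome 6, rose, with a median of 1.13. Gimap4 had 116, 116 and 92.3 in the early libraries and 5137 and 5618 in the late libraries (log2 fold change 5.63 ± 0.19 (SE), adjusted p = 1.5e-14) and Gimap3 had 263, 213 and 267 in the early libraries and 4472 and 4829.9 in the late libraries (log2 fold change 4.23 ± 0.17 (SE), adjusted p = 3.3e-13). Gimap6, with 8757, 8948 and 9272 in the early libraries and 16195 and 16721 in the late libraries, rose by less (log2 fold change 0.87, adjusted p = 0.0056) and lost its call without late replicate 2 (adjusted p = 0.052). Gimap1 was not called (log2 fold change −0.28, adjusted p = 0.43).

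NF-κB genes rose in 10 of 15 cases and fell in 1, with a median of 1.03. Relb, of the alternative pathway, had 108, 106 and 128 in the early libraries and 614 and 750.1 in the late libraries (log2 fold change 2.57 ± 0.21 (SE), adjusted p = 8.7e-09), and its partner Nfkb2 398, 413 and 559 in the early libraries and 962 and 1323 in the late libraries (log2 fold change 1.32, adjusted p = 0.00013). The target genes Icam1 (1.63) and Traf1 (1.51) rose as well. The inhibitor genes Nfkbia (log2 fold change −0.54, adjusted p = 0.21) and Tnfaip3 (log2 fold change −0.71, adjusted p = 0.54), which the pathway itself induces, were not called. Tnfaip3 was called by limma with the replicate block (adjusted p = 0.036) and with only the groups compared (adjusted p = 0.026).

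Genes that respond directly to the TCR signal gave a mixed picture, with 5 of 15 higher and 1 lower and a median of 0.89. Egr1, a standard readout of TCR engagement, had 749, 542 and 281 in the early libraries and 895 and 901 in the late libraries and was not called (log2 fold change 0.89, adjusted p = 0.1). Cd69, another such readout, had 383, 364 and 473 in the early libraries and 688 and 724 in the late libraries and was not called either (log2 fold change 0.80, adjusted p = 0.11), although the libraries of both genes did not overlap. With the replicate block limma called Cd69 (adjusted p = 0.014), as it did with only the groups compared, only the 8 TG6 libraries or library weights. Egr1 was called by limma without early replicate 1 alone (adjusted p = 0.035). Nr4a1, which encodes Nur77, was at 2283, 2299 and 6879 in the early libraries and 1428 and 1864 in the late libraries and not called (adjusted p = 0.39), with early replicate 3 far above the other early libraries. Itm2a, a membrane protein induced by positive selection, rose from 785, 852 and 717 to 3708 and 4236 (log2 fold change 2.34 ± 0.23 (SE), adjusted p = 1.2e-07). Irf4 rose from 97, 78.5 and 79.4 to 286 and 302 (log2 fold change 1.78, adjusted p = 0.00015). Cd5, the inhibitory receptor whose level follows TCR signal strength, fell from 6039.9, 5712 and 5463 to 1550.5 and 1703 (log2 fold change −1.82 ± 0.21 (SE), adjusted p = 8.3e-07). The 5 genes that rose became 2 without late replicate 2.

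Among 22 proximal TCR signalling genes 9 rose and 5 fell, with a median of 0.05. Fyn, a Src family kinase, rose from 3093, 3166 and 3422 to 7528 and 6946 (log2 fold change 1.17, adjusted p = 4.1e-05), and Lck, the other Src family kinase of the pathway, fell from 24738, 25897 and 24511 to 19167 and 19726 (log2 fold change −0.36, adjusted p = 0.002). The adaptors and inhibitors Sla (by 1.78), Cd6 (by 1.23) and Cbl (by 0.79) fell by those amounts on the log2 scale. Zap70 (0.01) and Lat (−0.02) were not called. Of 12 AP-1 and Bach factors 2 rose and 1 fell, and of 14 feedback genes 1 rose and 2 fell, shares near the 25.4% of all genes. The rise of Junb and the fall of Bach1 lost their calls without either late library and without early replicate 3. Bach2, a repressor that limits effector differentiation, rose from 489.9, 589 and 971 to 5565 and 4881 (log2 fold change 2.99 ± 0.38 (SE), adjusted p = 3.8e-06), and the ERK feedback inhibitor Spry1 fell from 72.3, 77.5 and 88.2 to 11.1 and 11.8 (log2 fold change −2.69, adjusted p = 0.0037).

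Few receptor segments were called. Of 91 Trav segments tested, 2 fell and none rose, and of 9 Trbv segments none was called by limma, 0 had an unadjusted p under 0.05, and 1 was called when only the 2 groups were fitted. Trbv1 had 24523 to 27982 in the early and 20107 and 20302 in the late libraries. Trav6-7-dv9, the highest of the Trav symbols, had 6867 to 8712 in the early and 8472 and 9658 in the late libraries. Several Trav symbols carried identical values (Trav6n-7 and Trav6d-7, for example) in every TG6 library. Trac was not called (log2 fold change 0.12, adjusted p = 0.66).

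Of 13 lineage choice factors 3 rose and 5 fell, with a median of −0.26, and 2 rose and 2 fell without late replicate 2. Among all genes 12.1% rose and 13.3% fell. Runx3, the factor of CD8 identity, rose from 497, 448 and 961 to 4143 and 5643 (log2 fold change 3.01 ± 0.35 (SE), adjusted p = 9.9e-07). Zbtb7b, which encodes the CD4 lineage factor ThPOK, also rose, from 11, 20.1 and 3.71 to 52.4 and 129 (log2 fold change 2.97, adjusted p = 0.0069), a call lost without late replicate 2 (adjusted p = 0.13), and its 3 mature CD8SP values were 9.28, 7.79 and 29.7. Tox rose from 3723, 3717 and 3141 to 5344 and 5265 (log2 fold change 0.59, adjusted p = 0.0011). Myb fell from 23311, 24079.9 and 28713 to 6154 and 5439.8 (log2 fold change −2.13, adjusted p = 6.1e-06), and Gata3 was not called (log2 fold change −0.63, adjusted p = 0.14).

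Among E proteins and their inhibitors, Id2 rose from 47.5, 50.7 and 98.7 to 438 and 452 (log2 fold change 2.82, adjusted p = 0.00064) while the E protein gene Tcf12 fell from 12666, 12423 and 14545 to 5656 and 5281 (log2 fold change −1.27, adjusted p = 8.5e-08) and Tcf3 by 0.38 (adjusted p = 0.0031). Id3 was lower too, at 839, 981 and 1445 in the early libraries and 209.9 and 279.7 in the late libraries, but the call was lost without either late library (adjusted p = 0.19 and adjusted p = 0.1). Of the identity factors, Gfi1 fell by 1.86 and Foxp1 rose by 0.93, and Bcl11b (0.03) and Satb1 (0.13) were not called. Satb1 was called by limma with quantile normalization (adjusted p = 0.00023) and with the replicate block (adjusted p = 0.035).

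Genes of the Notch list moved in both directions. Hes1, a Notch target, had 228, 413 and 598 in the early libraries and 18.1 and 14.4 in the late libraries (log2 fold change −4.48 ± 0.94 (SE), adjusted p = 0.00094), Il2ra, the IL-2 receptor α chain, had 1033, 1254 and 747 in the early libraries and 203 and 136 in the late libraries (log2 fold change −2.57, adjusted p = 3.7e-05), and the receptor gene Notch3 had 2911, 3033 and 2338 in the early libraries and 1199 and 1161 in the late libraries (log2 fold change −1.22, adjusted p = 0.001). Of the 7 genes of this list 4 fell and 2 rose, and the risers were Dtx1, which lost its call without either late library (adjusted p = 0.11 and adjusted p = 0.067), and Notch2, which lost its call without either as well (adjusted p = 0.071 and adjusted p = 0.07). Notch1 was not called (log2 fold change 0.01, adjusted p = 0.99).

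Homing genes rose in part. Of 15, 7 rose and 1 fell, with a median of 0.56. Itgae, the αE integrin CD103 that binds epithelial E-cadherin, had 48.6, 46.8 and 19.4 in the early libraries and 1410.2 and 1173 in the late libraries (log2 fold change 5.14 ± 0.49 (SE), adjusted p = 8e-08), and its partner Itgb7 1113, 1118 and 925 in the early libraries and 3149 and 3065 in the late libraries (log2 fold change 1.57, adjusted p = 2.6e-06). S1pr1, the receptor that guides exit from the thymus, had 99, 69.6 and 101 in the early libraries and 1431 and 869.9 in the late libraries (log2 fold change 3.64 ± 0.48 (SE), adjusted p = 5.7e-06), and 5543 to 7883 in the mature CD8SP libraries. Foxo1 rose by 1.22 (adjusted p = 0.00011). Klf2, which activates S1pr1, was at 270.2, 333 and 375 in the early libraries and 745 and 743 in the late libraries and was not called (adjusted p = 0.13), with 5883, 6993 and 5776 at the mature stage. With the replicate block limma called it (adjusted p = 0.0006), as it did with only the groups compared, only the 8 TG6 libraries or library weights.

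Chemokine receptors other than the 2 used for the sort included Ccr4, whose ligands are made in the medulla, at 709.6, 786 and 525 in the early libraries and 1691 and 1718 in the late libraries (log2 fold change 1.36, adjusted p = 8.9e-06) and 339, 309 and 345 at the mature stage. Ccr4 was thus higher in both late libraries than in any early or mature library. Ccr9, the receptor for CCL25, was not called (log2 fold change 0.30, adjusted p = 0.32).

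Costimulatory and inhibitory receptor genes rose in 11 of 19 cases and fell in 2, with a median of 0.88. Tnfrsf9, which encodes 4-1BB, had 12.3, 2.51 and 4.22 in the early libraries and 94.3 and 165 in the late libraries (log2 fold change 4.33 ± 0.64 (SE), adjusted p = 2.1e-05). The CD226 gene had 449.7, 431 and 255 in the early libraries and 3361 and 3126 in the late libraries (log2 fold change 3.14 ± 0.26 (SE), adjusted p = 7.8e-09), Btla 63.2, 88.6 and 61.1 in the early libraries and 622 and 486 in the late libraries (log2 fold change 2.96, adjusted p = 2.5e-07) and Icos 273, 309 and 334 in the early libraries and 1331 and 1371 in the late libraries (log2 fold change 2.15, adjusted p = 0.00023). Slamf6 fell from 5092, 4768 and 5008 to 2383 and 1867 (log2 fold change −1.23, adjusted p = 0.0002), and Cd28 was not called (log2 fold change −0.13, adjusted p = 0.76).

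Of 14 effector and innate-like genes tested 6 rose and 2 fell. Cd7 and Nkg7 led, whereas Gzma, a granzyme, fell from 540.4, 478 and 410.3 to 61.7 and 63.9 (log2 fold change −2.90, adjusted p = 0.0008). Of 10 genes linked to regulatory T cells and agonist selection 3 rose and 4 fell, beside 12.1% and 13.3% of all genes. Foxp3, the regulatory T cell factor, had 9.8, 6.1 and 9.59 in the early libraries and 41.8 and 46.9 in the late libraries (log2 fold change 2.28, adjusted p = 0.001), Capg rose by 2.66, and Nrp1, a marker of thymic regulatory T cells, fell from 689, 650.0 and 931 to 68.5 and 68.8 (log2 fold change −3.42, adjusted p = 0.00031).

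Ion channel genes that the study singled out, a choice made on these samples and so no independent evidence of direction, split into 4 that rose and 5 that fell of 13. Tmie, which the study placed among the channel genes, rose from 73.2, 75.7 and 177 to 858 and 1022 (log2 fold change 3.22 ± 0.42 (SE), adjusted p = 4.4e-06), and the potassium channel Kcna2 from 610.2, 619 and 629.8 to 3873 and 3654 (log2 fold change 2.60, adjusted p = 1.1e-06). The sodium channel β subunit Scn2b fell from 135, 189 and 189 to 14.1 and 12.8 (log2 fold change −3.56, adjusted p = 8.6e-07), and the calcium channel Cacna1e from 434, 421 and 355 to 75.8 and 106 (log2 fold change −2.15, adjusted p = 8.8e-05). Kcna3, the main potassium channel of T cells, was not called (log2 fold change 0.12, adjusted p = 0.75). The 5 that fell became 3 without late replicate 2.

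Enzymes that build surface glycans rose in 6 of 14 cases and fell in 1. Beside this count and the NFAT and chromatin counts below stand 12.1% of all genes that rose and 13.3% that fell. The 18.8% of chromatin factors that rose lie near that share. The sialyltransferases St3gal1 and St8sia6 rose by 2.29 and 2.22 and the branching enzyme Gcnt1 by 2.18, but the call was lost without late replicate 2 for Gcnt1 (adjusted p = 0.052) and without either late library for St8sia6 (adjusted p = 0.11 and adjusted p = 0.21). Mgat5, which adds another branch, fell by 1.51. Of 14 NFAT and calcium entry genes 4 rose (2 without late replicate 2) and 3 fell. Among them the calcium channel Orai1 rose by 1.38, a call lost without late replicate 2 (adjusted p = 0.068), and the factor Nfatc3 fell by 1.54. Of 16 chromatin factors 3 rose (1 without late replicate 1) and 4 fell, among which the DNA methyltransferase gene Dnmt1 fell by 0.91, a call lost without late replicate 1 (adjusted p = 0.059).

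Growth and metabolism genes were described through lists. Of 79 cytosolic ribosomal protein genes 33 rose and none fell, with a median of 0.24, and the count was 15 without late replicate 1. Rplp1 rose from 8843, 9168 and 8772 to 18689 and 17939 (log2 fold change 1.04, adjusted p = 1.4e-07). Of 29 ribosome biogenesis genes 14 rose and 1 fell, led by Rrp12 at 184, 150.1 and 159.7 in the early libraries and 528 and 524 in the late libraries (log2 fold change 1.68, adjusted p = 8.3e-06) and the RNA polymerase I subunit Polr1a at 460.2, 430.4 and 448 in the early libraries and 1321 and 1239.5 in the late libraries (log2 fold change 1.52, adjusted p = 7.6e-10).

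Of 40 oxidative phosphorylation genes 7 fell (17.5%), near the 13.3% of all genes, and 1 fell without either late library. Of 22 sterol synthesis genes 7 fell and 1 rose, and 3 fell without either late library. Insig1, the sterol sensor partner, fell by 1.81 (adjusted p = 0.00084). Of 19 glycolysis genes 4 rose and 1 fell, together near the 25.4% of all genes called. The enolase gene Eno1 was at 5562, 5726 and 5895 in the early libraries and 10571 and 10566 in the late libraries (log2 fold change 0.88, adjusted p = 2e-06). The lactate dehydrogenase subunit Ldhb fell from 5149, 5853 and 6149.9 to 1972 and 2050.1 (log2 fold change −1.50, adjusted p = 1.8e-06).

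**Figure D3:**
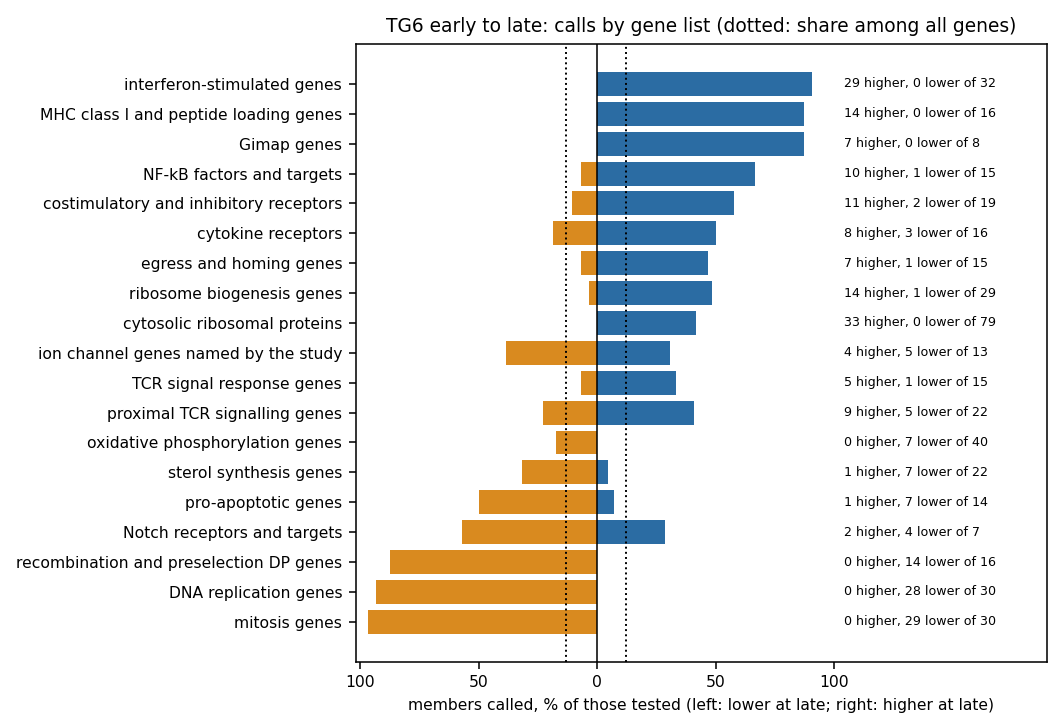
Share of tested members called higher (blue, right) and lower (orange, left) at late positive selection in TG6 for the gene lists named, in percent, with the counts at the right. The dotted lines mark the share among all tested genes, 12.1% higher and 13.3% lower.

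The question of which changes belong to TG6 was addressed by testing the difference in the change between lines. In F5, 2079 genes rose and 2294 fell between the same stages, and in OT-1 2080 rose and 2287 fell (26.7% of genes called in each line). Of the 1984 genes that rose in TG6, 1199 were called higher in F5 (60.4% of the TG6 and 57.7% of the F5 genes) and 1244 in OT-1 (62.7% and 59.8%). Of the 2174 that fell, 1427 were called lower in F5 (65.6% and 62.2%) and 1404 in OT-1 (64.6% and 61.4%). In all 3 lines 886 genes rose and 1161 fell, among them Rag1 and Mki67 on the lower side.

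The change differed between TG6 and F5 for 340 genes (2.08%), 230 more positive in TG6 (1.4%) and 110 more negative (0.672%). It differed between TG6 and OT-1 for 334 genes (2.04%), 179 more positive (1.09%) and 155 more negative (0.947%). The change was the larger one in TG6 for 282 of the 340 and 295 of the 334. The 2 tests share the TG6 libraries. The counts rest on few libraries, and fell to 179 and 156 for F5 and to 135 and 111 for OT-1 without late replicate 1 or 2 of TG6. Against OT-1 the count also fell to between 171 and 218 without OT-1 late replicate 1 or 2, OT-1 early replicate 1 or 2 or TG6 early replicate 3. With the replicate number as a block the counts were 788 and 732.

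Interferon-stimulated genes rose further in TG6 than in F5 for most of the list. Of the 32, 21 changed more positively in TG6 than in F5 and none more negatively, and 5 did so against OT-1. Leaving out 1 library in turn gave 17 to 24 of them against F5 and 0 to 8 against OT-1, where the lowest count was without TG6 late replicate 2 and the highest without TG6 mature replicate 3. Of the 32 genes, 29 rose and 1 fell in OT-1, against 29 that rose in TG6, and 6 rose and 3 fell in F5. The median fold change of the list was 2.17 in TG6, 0.22 in F5 and 1.40 in OT-1. For Ifit1 it was 4.70 in TG6, 1.04 in F5 and 2.35 in OT-1, a difference of 3.66 ± 0.51 (SE), adjusted p = 0.00039 from F5 and of 2.36 ± 0.51 (SE), adjusted p = 0.017 from OT-1. For Usp18, an inhibitor of interferon signalling, the change was 2.31 in TG6 and −1.10 in F5 (difference 3.42 ± 0.66 (SE), adjusted p = 0.0051). The summed dendritic markers were 310.4 to 857 in F5 early and 160.5 to 222 in F5 late libraries, and 617 to 1431 in OT-1 early and 995 to 1146 in OT-1 late libraries. Of the 12 markers tested 3 changed more positively in TG6 than in F5 and 3 than in OT-1, and their part in the differences was not tested.

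Class I genes gave the same order of medians, with 11 of 16 more positive in TG6 than in F5 (fewer without TG6 late replicate 2) and 1 more positive than in OT-1 (4 without TG6 mature replicate 3). The medians were 0.93, 0.13 and 0.56 in TG6, F5 and OT-1. In OT-1 9 of the 16 rose and 1 fell, and in F5 4 rose and 3 fell. Nlrc5 was the gene that differed from both, rising by 5.02 in TG6, 2.93 in F5 and 2.70 in OT-1 (difference 2.09 ± 0.31 (SE), adjusted p = 0.00047 from F5 and 2.32 ± 0.31 (SE), adjusted p = 0.00018 from OT-1). For H2-K1 the difference from F5 was 1.71 ± 0.24 (SE), adjusted p = 0.00039. As the alleles at H2 differ between the lines, this gene's difference cannot be told apart from the haplotype.

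**Figure D4:**
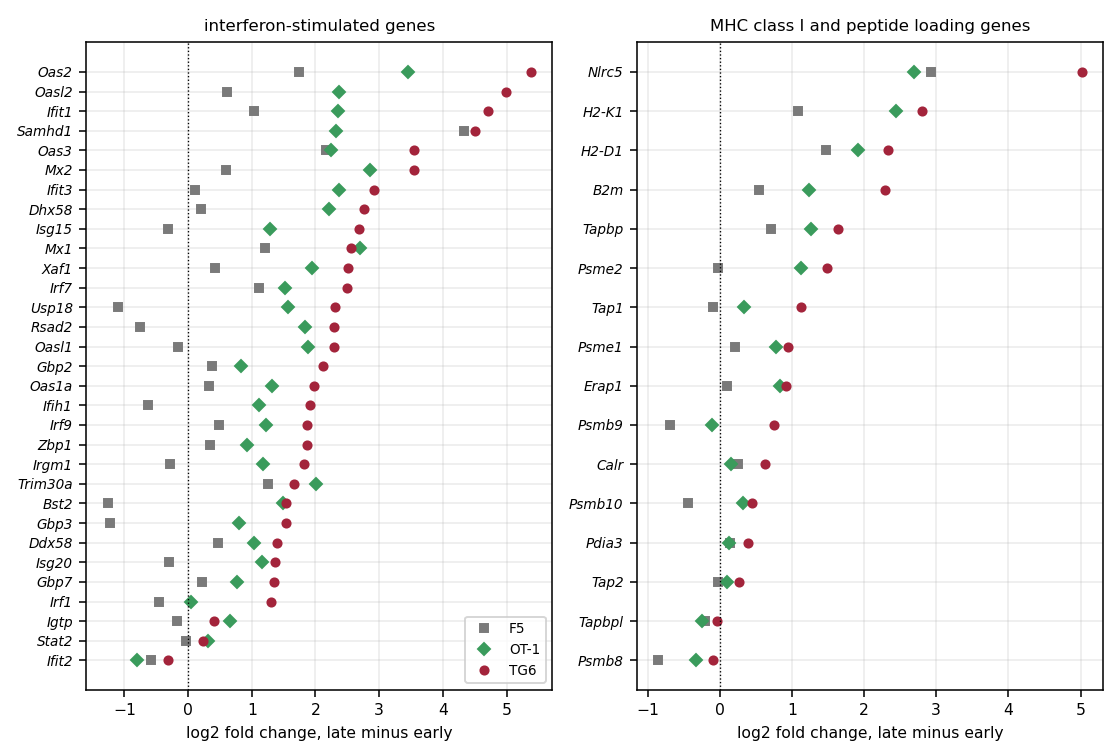
Log2 fold change from early to late for interferon-stimulated genes (left, 1 member not shown) and class I or peptide loading genes (right) in TG6 (red circles), OT-1 (green diamonds) and F5 (grey squares). The medians of the interferon-stimulated genes are 2.17 in TG6, 1.40 in OT-1 and 0.22 in F5.

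For mitosis genes the median was −5.41 in TG6, −5.48 in F5 and −3.93 in OT-1, and limma called no difference from F5 (2 without F5 late replicate 2) and 1 from OT-1, that of Kif23. The difference from F5 was above 0 for 13 of 30 genes, and for 28 without F5 late replicate 2. The summed level of the list ran from 4451 to 17170 in the F5 late libraries. Of the preselection list 5 of 16 changed more negatively in TG6 than in F5, 3 without TG6 late replicate 1 and 2 without TG6 late replicate 2. Against OT-1 1 of 16 did so, and none without TG6 late replicate 1 or 2, TG6 early replicate 3 or OT-1 early replicate 1, and 3 without TG6 mature replicate 3. The 5 against F5 were Themis, Clk3, Ets2, Plxnd1 and Spo11, with Ets2 at −2.04 in TG6 and −0.56 in F5 (difference −1.48 ± 0.29 (SE), adjusted p = 0.0059). Bcl2 rose by 2.27 in TG6 against 0.53 in F5 and 0.77 in OT-1 (differences of 1.74 ± 0.26 (SE), adjusted p = 0.00057 and 1.50 ± 0.26 (SE), adjusted p = 0.0028). Il7r rose by 5.87, 2.25 and 2.82 in that order (differences of 3.62 ± 0.66 (SE), adjusted p = 0.0028 and 3.05 ± 0.66 (SE), adjusted p = 0.016).

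Itgae and Coro2a, an actin-binding coronin, were among the 4 genes named for a more positive change than in F5. Itgae rose by 5.14 in TG6, while the F5 means were 17.8 ± 3.9 to 28.2 ± 15.6 (SD, n = 3), and the difference was 4.63 ± 0.66 (SE), adjusted p = 0.00039. Coro2a had 12.6, 19.6 and 10.8 in the early libraries and 6.84 and 23 in the late libraries in TG6 and was not called, while it fell by 5.04 in F5. Bcl3, an atypical IκB protein, went from 2.6, 1.3 and 3.87 to 50 and 60.5 (difference 5.31 ± 0.98 (SE), adjusted p = 0.0032). The F5 means of Bcl3 were 4.47 ± 7.74 to 0 ± 0 (SD, n = 3), so the size of its difference depends on the pseudocount (6.84 with 0.1 and 3.62 with 5) and was 4.03 without F5 early replicate 2. Tgtp1, an interferon-induced GTPase with a near-identical copy, went from 26.3, 56 and 23 to 420.4 and 1101.

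On the negative side, Cfap74, a ciliary protein gene, fell from 2451, 2718 and 2257 to 255 and 333 (difference −2.10 ± 0.31 (SE), adjusted p = 0.00047 from F5). Pde6a fell from 256, 245 and 249 to 6.98 and 1, Il17re from 300.0, 225 and 242 to 12.8 and 12.4 and Gtf2h4, a subunit of the transcription factor TFIIH, from 5782, 6248 and 7771 to 288 and 282. In F5 the means of Pde6a were only 5.93 ± 0.998 at early and 1.73 ± 0.609 at late (SD, n = 3), so it had little left to lose there. The differences of Tgtp1, Pde6a, Il17re and Gtf2h4 lost their calls without TG6 late replicate 2 (adjusted p = 0.27, 0.25, 0.10 and 0.18) and without several other single libraries.

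Against OT-1, 4 genes were named for a more positive change, among those with a mean of at least 100 in some group. Of these, Gimap4 rose by 5.63 in TG6, while the OT-1 means were 2485 ± 241 to 7665 ± 1075 (SD, n = 3), so that the difference was 4.01 ± 0.25 (SE), adjusted p = 5.7e-09. Gpr18 followed the same pattern (5.91 against 2.35, difference 3.56 ± 0.51 (SE), adjusted p = 0.00048). Prss2, a trypsinogen gene, had 28.7, 49.7 and 46.5 in the early libraries and 256 and 242 in the late libraries. Its OT-1 means were 2.64 ± 2.84 to 0.345 ± 0.598 (SD, n = 3), so the size of its difference depends on the pseudocount. With a pseudocount of 0.1 limma did not call its rise in TG6 (adjusted p = 0.14). Fah, an enzyme of tyrosine breakdown, had 7.72, 4.31 and 10.9 in the early libraries and 333 and 30.7 in the late libraries, where late replicate 1 alone was high.

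Fbxo27 fell from 273, 269 and 329 to 8.44 and 4.35 and Fmnl2, a formin, from 560.0, 564 and 584 to 5.03 and 19.2, against falls of 1.98 and 2.39 in OT-1 (differences −3.38 ± 0.61 (SE), adjusted p = 0.0035 and −3.30 ± 0.75 (SE), adjusted p = 0.022). Il17rc was at 118, 53.3 and 262 in the early libraries and 3.41 and 5.09 in the late libraries and Drc1, of the dynein regulatory complex, at 152, 155 and 465 in the early libraries and 71.5 and 27.7 in the late libraries, both with early replicate 3 highest. The difference from OT-1 lost its call without TG6 late replicate 2 for Prss2 (adjusted p = 0.061), Il17rc (0.057), Drc1 (0.27) and Fbxo27 (0.055), and without TG6 late replicate 1 for Prss2 (0.063), Il17rc (0.071), Fah (0.33) and Fmnl2 (0.21).

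**Figure D5:**
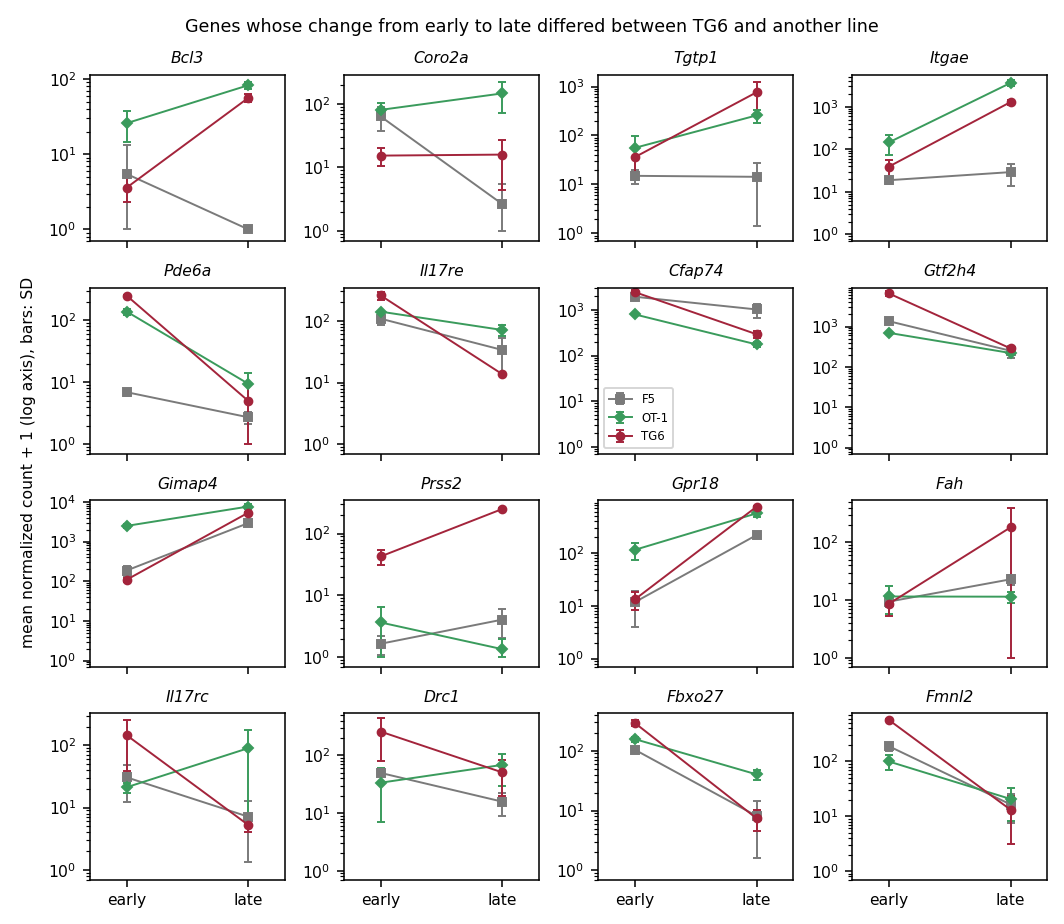
Mean normalized count plus 1 (log axis) at early and late positive selection for the 16 genes named for a different change in TG6 than in F5 or OT-1, with bars of 1 SD (3 libraries, 2 for TG6 late, cut at a value of 1). Itgae rises in TG6 and OT-1 and reaches a mean of 28.2 in F5, and Gtf2h4 starts higher in TG6 than in the other lines.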

How the data were processed

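RNA of sorted thymocytes was sequenced in 26 samples, 5 of which form the TG6 comparison. As the labels and methods state, the authors trimmed reads with Trimmomatic 0.32, aligned and quantified them with Bowtie2 2.3.2 and RSEM 1.2.31 against mm10, and normalized the estimated counts with DESeq2. The deposited table holds these normalized counts, a per-gene signal divided by library size factors, for 46517 symbols. Between 42.4% and 44.2% of positive values in a library were whole (within 0.01) when divided by its most frequent positive value, so reads were not recovered and no count model was used. Depth is therefore an estimate, at 16356143 to 17407678 reads in the 5 libraries, and whether late and early differ at low values is limited by it.

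Groups were taken from the labels. The titles of the 2 TG6 late samples differ slightly from their column names, and they were matched by line, stage letter and replicate number. The 16372 genes that reached 10 in 2 or more libraries were fitted with limma 3.58.1 in R 4.3.3 on log2(value + 1), with 9 group means, empirical Bayes moderation with a mean trend, and Benjamini-Hochberg adjustment over all of them. A gene was called at an adjusted p under 0.05. Differences in the change between lines were interaction contrasts of the same fit. The procedure was tested on simulated data. Named genes were the 12 per direction with the largest change among called genes whose libraries do not overlap and whose higher group has a mean of at least 100, members of the gene lists, and the 4 per direction with the largest interaction and a mean of at least 100 in any of the 9 groups, which need not be a group of the contrast, leaving out receptor segments and predicted genes. The members, lists and motifs were chosen with earlier results of these data known. Part of the lists came from the study. Single-gene results for 3 list members are not reported here.

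Coordinates are GRCm38 from GENCODE and matched 92.8% of tested symbols. Promoter windows came from RefSeq (GRCm38.p6). Alternatives were other pseudocounts (0.1 and 5), filters, normalizations, sets of samples, variance priors, library weights, a replicate block, a fold threshold and leaving out in turn each early or late library of the lines compared, or TG6 mature replicate 3. Residual correlations of same-numbered libraries exceeded 0.1 in 2 of 7 pairs in TG6 (0.023 to 0.274), 9 of 9 in F5 (0.106 to 0.34) and 5 of 9 in OT-1 (0.0189 to 0.178). Pairs with different numbers ran from −0.228 to 0.0921 in TG6, −0.278 to 0.049 in F5 and −0.143 to 0.0513 in OT-1. Every same-numbered correlation was positive, and in F5 all lay above those of different numbers. The labels do not say that a number marks a mouse, and the replicate block was an alternative, whose counts of differences between lines stand beside the main ones.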

Additional observations from a re-analysis of the deposited data

Results flagged for a closer look

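The test of the difference in the change from early to late positive selection separated TG6 from F5 for 340 genes and from OT-1 for 334. The values below are differences of log2 fold changes, TG6 minus the other line, for the genes named from these tests.

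Against F5, the change was more positive in TG6 by 5.31 for Bcl3, 4.92 for Coro2a, 4.73 for Tgtp1 and 4.63 for Itgae. It was more negative for Pde6a (−4.61), Il17re (−2.43), Cfap74 (−2.10) and Gtf2h4 (−2.03). Pde6a was very low in F5 at both stages. Bcl3 lost its call when only the groups compared were fitted (adjusted p = 0.079 by limma), and Coro2a, Itgae and Cfap74 stayed called under all alternatives run. For Coro2a the difference came from its fall to very low values in F5, as it was not called in TG6.

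Against OT-1, the change was more positive by 4.01 for Gimap4, 3.85 for Prss2, 3.56 for Gpr18 and 3.53 for Fah. It was more negative for Il17rc (−5.95), Drc1 (−3.52), Fbxo27 (−3.38) and Fmnl2 (−3.30). Gimap4 and Gpr18 stayed called under all alternatives run.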

How the results depend on the processing

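With a fold threshold of 1 on the log2 scale the TG6 comparison had 2281 genes, 992 higher and 1289 lower. Fits that left out 1 library gave 2631 to 4741 genes, 1263 to 2218 higher and 1368 to 2523 lower, with the lowest counts without TG6 late replicate 2 and the highest without TG6 mature replicate 3, a choice made after seeing the data. The differences from F5 numbered 788 with the replicate block, 983 with library weights and 156 to 599 when 1 library was left out. Those from OT-1 numbered 734 with only the groups compared, 732 with the replicate block, 1421 with library weights and 111 to 563 when 1 library was left out. Of the fits without 1 library, the highest counts were those without TG6 mature replicate 3, where 4157 of the 4158 TG6 calls were kept. For TG6 alone the replicate block gave 4532 genes and library weights 6105, the highest count of all alternatives. The log2 fold change ranged from −0.93 to 0.69 for Coro2a and from −0.15 to 0.23 for Mcl1 when 1 library was left out, and neither gene was called in any of these fits. Gata3, Ccr9 and Gimap1, which were not called, were called with only the groups compared, and Gata3, Slc6a19 and Igtp with library weights. The cause was not tested.

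Of 195 recomputed counts of genes 137 stayed within a factor of 1.5, and of 1656 counts of list members 1510 did. Of 4972 recomputed values of named genes, 4701 kept direction and side of the threshold, 236 lost and 33 gained a call. Scaling to a common total moved the median of all genes by 0.0186. With 2 late libraries the size of a change rests on few mice, and reads behind low values are few.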

Other observations

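The genes below were picked after their values were seen. Ddr1, a collagen receptor kinase (chr17:35681567-35704621), Gtf2h4 (chr17:35667730-35673739) and Vars2, the mitochondrial valyl-tRNA synthetase (chr17:35655634-35667592), lie next to each other on chromosome 17 and all fell in TG6. Ddr1 had 1687, 1838 and 2331 in the early libraries and 385 and 461 in the late libraries, while the early means were 38.7 ± 5.19 in F5 and 23.7 ± 2.05 in OT-1 (SD, n = 3). Vars2 had 2664, 2844 and 3442 in the early libraries and 869 and 853 in the late libraries, with early means of 1201 ± 151 in F5 and 711 ± 61.0 in OT-1 (SD, n = 3). Its change was more negative than in F5 by a difference of −1.45 ± 0.21 (SE), adjusted p = 0.00047 and than in OT-1 by −1.87 ± 0.21 (SE), adjusted p = 4.9e-05. For Ddr1 the difference was −1.47 ± 0.42 (SE), adjusted p = 0.076 from F5, which was not called, and −2.58 ± 0.42 (SE), adjusted p = 0.0015 from OT-1. These genes lie in the H2 region, where TG6 mice are labelled b/d, and the haplotype cannot be told apart from the receptor here.

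Ccl22, a chemokine ligand of Ccr4 made mainly by dendritic cells, had 0, 0.71 and 0 in the early libraries and 51.5 and 61.5 in the late libraries (adjusted p = 4.3e-05), and of the TG6 libraries Ccr4 was highest in the same late ones. The early values are near 0, so its fold depends on the pseudocount. On the log2(value + 1) scale its change was more positive than in F5 (6.48 ± 1.17 (SE), adjusted p = 0.0027) and than in OT-1 (5.44 ± 1.17 (SE), adjusted p = 0.016).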
